A study of Sus scrofa with 4 samples.

Results

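Some epithelial cells of porcine pancreatic ductal organoids (PPDO) had very high levels of S100A8, S100A12, SPRP, CNFN and KRTDAP. These terminal S100A8 and SPRP cells were taken as the highest 1% of each organoid library by the mean of ln(1 + UMIs per 10000 UMIs) over those 5 genes, where a UMI (unique molecular identifier) marks 1 captured RNA molecule. The rule gave 89 of 8885 kept cells in PPDO 1 and 73 of 7337 in PPDO 2, in all 162 of 16222 kept organoid cells, in a series of 32580 barcodes. Measured values therefore chose the members, and the share of 1% is a choice and not a result.

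PPDO are epithelial structures grown in extracellular matrix from ducts dissected out of pig pancreas. The organoid group had 2 libraries, PPDO 1 and PPDO 2, and the comparison group had 2 libraries of dissociated primary pancreas, both enriched. The first was made from ductal fragments picked by hand, and the second pooled cells sorted for the ductal lectin DBA, cells sorted for INS-eGFP and cells of the whole suspension. No treatment differed between the organoid libraries, and both were made from live cells sorted after dissociation. The study describes its 2 organoid lines as 1 late postnatal and 1 adult, taken at different passages, whereas the sample codes in its methods, read as postnatal days, both fall in its late postnatal range. Neither title says from which of the lines a library came, and each library is 1 culture. Differences of age, passage and culture between PPDO 1 and PPDO 2 cannot be told apart. Both primary pancreata came from late postnatal pigs and were not cultured. One was wild type and the other carried an INS-eGFP transgene, in which the porcine insulin promoter drives eGFP in beta cells. The pigs of the study were of German landrace background and either wild type or INS-eGFP, and which of these genotypes an organoid line had is not given in the sources used here.

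Stratified epithelia renew from a basal layer that is attached to the basement membrane by integrins and that expresses KRT5, KRT15 and the transcription factor TP63. Cells that leave this layer stop dividing, change keratins and desmosomal cadherins, fill with envelope precursors such as involucrin, and are finally cross-linked by transglutaminases and shed after kallikrein proteases cut their junctions. This programme belongs to skin and to wet squamous linings, whereas normal pancreatic ducts are a simple epithelium with KRT7, KRT8 and KRT18. S100A8 and S100A12 encode calcium-binding proteins known from neutrophils and from stressed or differentiating squamous cells, SPRP is a small proline-rich protein of the cornified envelope that RefSeq also lists as SPRR1B, CNFN encodes cornifelin, another envelope component, and KRTDAP and DMKN encode small secreted proteins of differentiating keratinocytes.

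Sequencing gave 9853 and 8071 barcodes with a median of 35310 and 35127 UMIs in PPDO 1 and 2, and 6999 and 7657 barcodes with medians of 8592 and 7402 UMIs in primary pancreas. Between any 2 libraries 10 to 23 barcode sequences were shared, 23 of them between the organoid libraries. All levels below are CPM, the UMIs of a gene scaled to 1000000 UMIs over a set of cells in 1 library. Values are given for PPDO 1 first and PPDO 2 second.

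The score fell continuously and had no gap at the chosen limit. The lowest members of PPDO 1 scored 2.86, 2.87 and 2.90 and the highest cells outside scored 2.86, 2.83 and 2.83, while in PPDO 2 the lowest members scored 4.05, 4.07 and 4.08 and the highest cells outside 4.04, 4.04 and 4.04. Members had a median score of 3.51 and 4.45, against 0.0579 and 0.167 over all kept cells. PPDO 2 held more cells of this kind, since 246 of its cells, or 3.35%, reached the limit of PPDO 1, whereas only 25 cells of PPDO 1, or 0.281%, reached the limit of PPDO 2. With 1 library from each line this difference between PPDO 1 and PPDO 2 has no replicate.

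**Figure D1:**
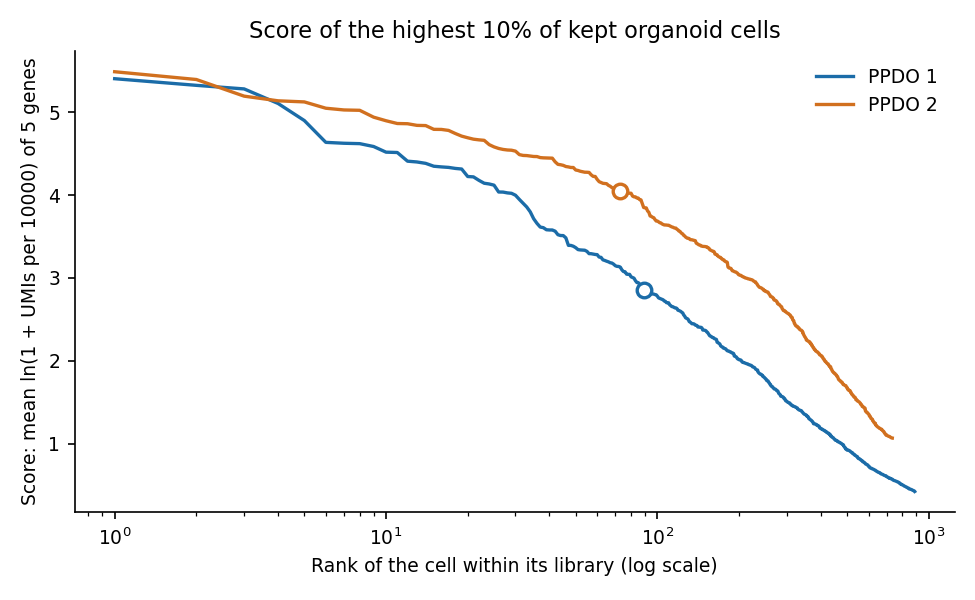
Score (mean natural log of 1 + UMIs per 10000 over 5 genes, y axis) of the highest 10% of kept cells in each organoid library against their rank within the library (x axis, log scale), with an open circle at the lowest member. The curve of PPDO 2 lies above that of PPDO 1 at nearly all ranks, and neither has a step at its open circle.

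Members were loaded with the transcripts that defined them. S100A8 stood at 11902 and 18042 CPM in members and at 87.5 and 406 CPM in all other kept cells. S100A12 stood at 33399 and 44171 CPM against 400.4 and 1287 CPM, and SPRP at 2835 and 6446 CPM against 29.3 and 97.97 CPM. These values describe the selection and no test was made on them. The 89 and 73 cells carried 62.0% and 31.3% of all S100A8 UMIs of their library, and 53.8% and 40.3% of the SPRP UMIs. In the median member the 5 score genes made up 5.67% and 8.82% of all UMIs, with a range of 1.49 to 26.8% in PPDO 1 and of 4.76 to 24.0% in PPDO 2, against 0.00329% and 0.0105% in the median other cell. All 5 score genes were detected in 57 of 89 and 72 of 73 members, and the least complete members had 3 and 4 of them.

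Cornifelin and the KRTDAP product followed the same order of cell sets. CNFN was at 402 and 1334 CPM in members, 58.4 and 283 CPM in the next 4% of cells by the same score and 3.43 and 18.2 CPM in all other cells. KRTDAP was at 15229 and 21658 CPM, 2937 and 10015 CPM and 172 and 640.1 CPM in those sets. All other cells are all kept cells outside the members, so they include the next 4%. The next 4% held 776 of their 1020 CNFN UMIs in PPDO 1 and 3649 of 4731 in PPDO 2. In both libraries the members were highest and all other cells lowest, as the rule requires. RefSeq places S100A8 (96209670 to 96210603), S100A12 (96225691 to 96227030), SPRP (96588991 to 96590696) and IVL (96656033 to 96658737) close together on chromosome 4 of Sscrofa11.1. KRTDAP (44932195 to 44935921) and DMKN (44942067 to 44957192) are neighbours on chromosome 6, which also carries CNFN (49568224 to 49574070) and KLK7 (55644627 to 55649000).

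**Figure D2:**
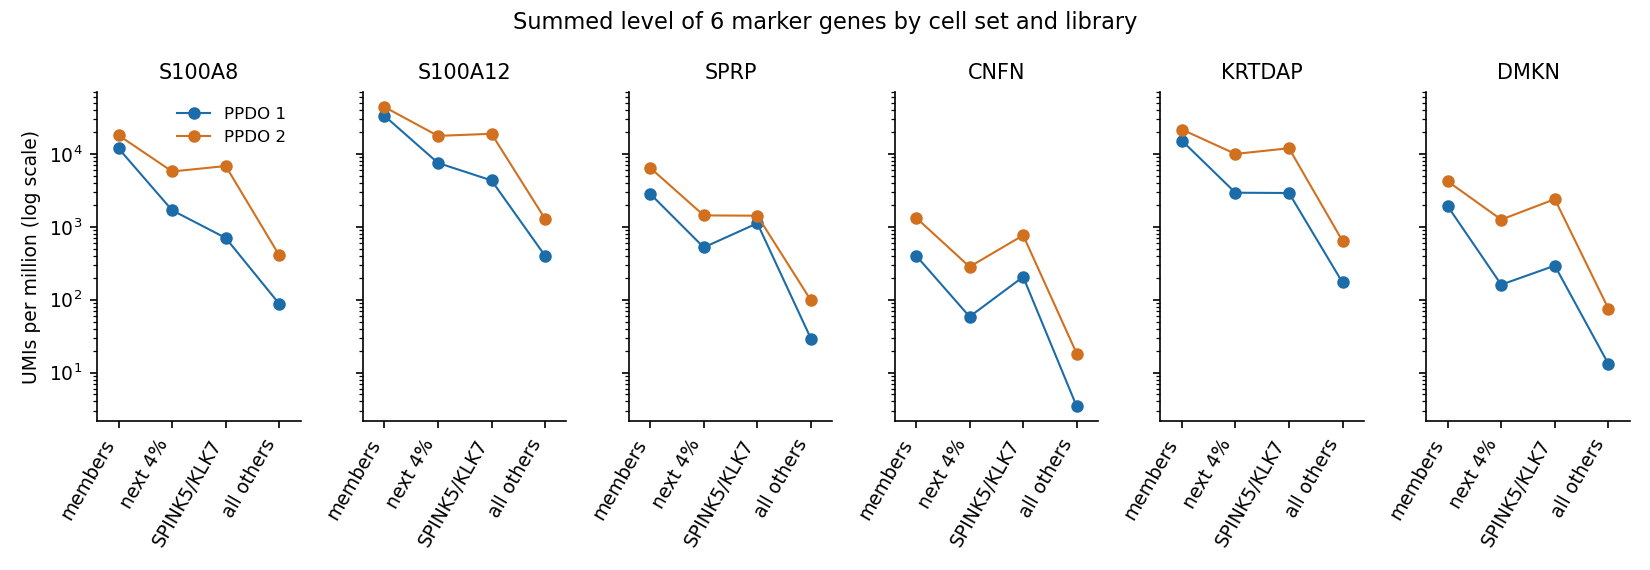
Level (CPM, log axis) of the 6 marker genes S100A8, S100A12, SPRP, CNFN, KRTDAP and DMKN in 4 sets of organoid cells: members, the next 4% by the same score, the cells highest for SPINK5 and KLK7, and all other kept cells, with 1 line per library. Members are highest and all other kept cells lowest for each gene in both libraries. SPRP in members was 2835 and 6446 CPM, against 29.3 and 97.97 CPM in all other kept cells.

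Each score gene was also read in cells that it had not helped to choose, the highest 1% on the other 4 genes. S100A8 was at 10730 and 15450 CPM in cells picked without it, against 109.6 and 434 CPM in the remaining cells. CNFN was at 304 and 1201 CPM against 4.53 and 19.9 CPM. For each of the 5 genes both values in the picked cells lay above both values in the remaining cells. Of the cells picked with 1 gene held out, 72 to 83 of 89 and 63 to 67 of 73 were also members, and the 5 genes had been chosen because they went together in an earlier clustering of the same cells. These levels therefore follow from the choice of genes and are given as a description, with no test.

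Members did not stand apart by depth. Their median depth was 40744 and 33228 UMIs, against 34127.5 and 34464 UMIs in all other kept cells. They had a median of 6330 and 5501 detected features against 6408 and 6334.5, and mitochondrial UMIs of 0.363% and 0.230% against 0.397% and 0.389%. In PPDO 2 members had fewer features and a lower mitochondrial share than other cells, and in PPDO 1 the medians lay closer together. No member had a Scrublet doublet score over 0.25, against 1.31% and 1.24% of other cells, shares at which 89 and 73 cells are too few to show a difference. On principal components of 2000 variable genes without the score genes, 68.2% and 52.5% of the 15 nearest neighbours of a member were members, who made up 1.00% and 0.995% of kept cells. Another 27.3% and 46.7% of the neighbours lay in the next 4% by the same score. No member was among the neighbours of 4 members of PPDO 1 and 1 of PPDO 2. Genes that go with the score genes stayed in these components, so high shares follow in part from the selection and are a description. One Leiden cluster of 516 cells held 62 of the 89 members of PPDO 1, and one of 508 cells held 72 of the 73 members of PPDO 2, so members shared their cluster with many cells below the limit.

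Since S100A8 and S100A12 are also neutrophil genes, markers of immune cells were read in the members. Of 21 measured genes of neutrophils, monocytes and other immune cells, 9 and 12 had no UMI in members. Their summed level was 129 and 95.5 CPM in members against 118 and 119 CPM in other cells. Of 29 genes of endocrine, acinar, endothelial, stromal and glial cells, 19 and 22 had no UMI, and the sum was 35.0 and 31.2 CPM against 58.8 and 59.6 CPM. SPI1, the transcription factor of the myeloid lineage, fell by 2.41 on the log2 scale (2.52 and 1.13 CPM against 11.3 and 15.8 CPM), while CD68, a lysosomal protein of macrophages and other cells, rose by 0.89 and LCP1, an actin bundler, by 0.61. CD68 was at 36.4 and 15.4 CPM in members and 19.2 and 15.7 CPM in other cells, so its groups overlapped and its CPM in PPDO 2 was not higher in members. Neither CD68 nor LCP1 passed in all 4 of the fits described below.

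The first comparison asked which other genes differed between members and all other kept cells of the same library. Of 21004 genes tested with edgeR (library as a block, Benjamini-Hochberg adjusted p of 0.05), 2267 or 10.8% were higher and 3040 or 14.5% lower in members. Of the genes tested 2630 had no UMI in any member, and 117 of these were called lower. They passed the low-count filter through the much deeper sums of other cells. With 5 other cells per member, those of nearest UMI total, in place of all other cells, 13483 genes were tested, of which 2249 (16.7%) were higher and 2238 (16.6%) lower, so there was no excess of lower calls against these matched cells. For lists with many lower genes the counts against the matched cells are given as well. Without TMM scaling these counts were 1143 and 5081, and the median log2 fold change of all genes moved from -0.23 to -0.61. Every called gene kept its direction without TMM. Fold changes below are TMM-scaled and so lie about 0.38 above the log2 ratio of the CPM values. With 2 libraries the fit shared 1 spread over all genes, so its p-values are very small and rest on that spread. A gene is therefore also described by whether it passed in all 4 fits (edgeR, edgeR with a robust prior, DESeq2, and edgeR without the block), which 1206 genes (5.74%) did in the higher direction and 1221 (5.81%) in the lower. The members were picked by expression, so these calls describe which genes go with the score.

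Genes of the cornified envelope went with the score. Of 22 genes of that list tested, 17 were higher and 1 lower, 14 of the 17 in all 4 fits, with a median log2 fold change of 2.92 against -0.23 over all genes tested. IVL, which encodes involucrin, an early scaffold of the envelope, was at 723 and 1463 CPM in members and 33.5 and 86.9 CPM in other cells (log2 fold change 4.64, SE 0.19). Values in parentheses after a pair of levels are such fitted log2 fold changes with their standard error (SE). TGM1, the membrane transglutaminase that cross-links the envelope, was at 65.7 and 139 CPM against 3.94 and 10.2 CPM (4.29, SE 0.18). Cystatin A, the protease inhibitor encoded by CSTA, was at 6168 and 6843 CPM against 691 and 788 CPM (3.52, SE 0.19). Each of these genes was high in both member sums and low in both other sums, with no overlap. Here and below, statements on overlap only describe the sums. The share of all tested genes without overlap was not counted, and genes named by size were picked for the same direction in both libraries.

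Suprabasin and caspase 14 marked the upper end of the list. SBSN, a secreted keratinocyte protein, was at 113 and 159 CPM in members and 1.69 and 5.89 CPM in other cells (5.78, SE 0.19). CASP14, the protease of filaggrin breakdown in the outermost living layer, was at 106 and 163 CPM against 0.444 and 4.41 CPM. Its log2 fold changes were 8.15 and 5.68, the other cells of PPDO 2 held more of it than those of PPDO 1, and it did not pass with the robust prior. CDSN, corneodesmosin, rose by 4.98, but 66% and 67% of its member UMIs came from 1 cell in each library. Also called higher were CALML5, A2ML1, ANXA9, LYPD3, CLIC3, EVPL, SCEL, PPL, CSTB and ANXA1. S100A10 was the gene called lower, at 914 and 1095 CPM against 1566 and 1946 CPM (log2 fold change -0.42), and it did not pass in all 4 fits. Many envelope genes could not be read, since only 26 of the 45 on the list were matched in the deposited annotation, and loricrin, filaggrin and most SPRR genes were not used here.

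The keratin make-up differed as well. Of 10 keratins of suprabasal or stressed epithelium tested, 7 were higher and none lower, 5 of them in all 4 fits. KRT10, the type I keratin of spinous cells, was at 793 and 576 CPM in members and 106 and 72.3 CPM in other cells (3.33, SE 0.18). KRT23, another type I keratin, was at 2101 and 2753 CPM against 96.3 and 168 CPM (4.63, SE 0.19). Member values lay above other values in both libraries for each. KRT77, KRT78 and KRT80 were also called higher.

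KRT1, the usual partner of KRT10, was concentrated in few members. It was at 344 and 295 CPM in members and 0.114 and 7.601 CPM in other cells, but it had UMIs in only 14 of 89 and 21 of 73 members, against 0.364% and 1.16% of other cells at similar median depth. In PPDO 1 a single member held 86% of the KRT1 UMIs of the members, and in PPDO 2 a single member held 23%. KRT1 was called by edgeR with the block (log2 fold change 8.25) but not with the robust prior or without the block. KRT4, a keratin of wet squamous linings, was at 27.7 and 199.6 CPM against 13.7 and 3.86 CPM, and 1 member held 64% and 40% of its member UMIs. Keratins are close paralogs, so reads may be split among them, and KRT6A, KRT14, KRT16 and KRT17 were not matched in the annotation.

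**Figure D3:**
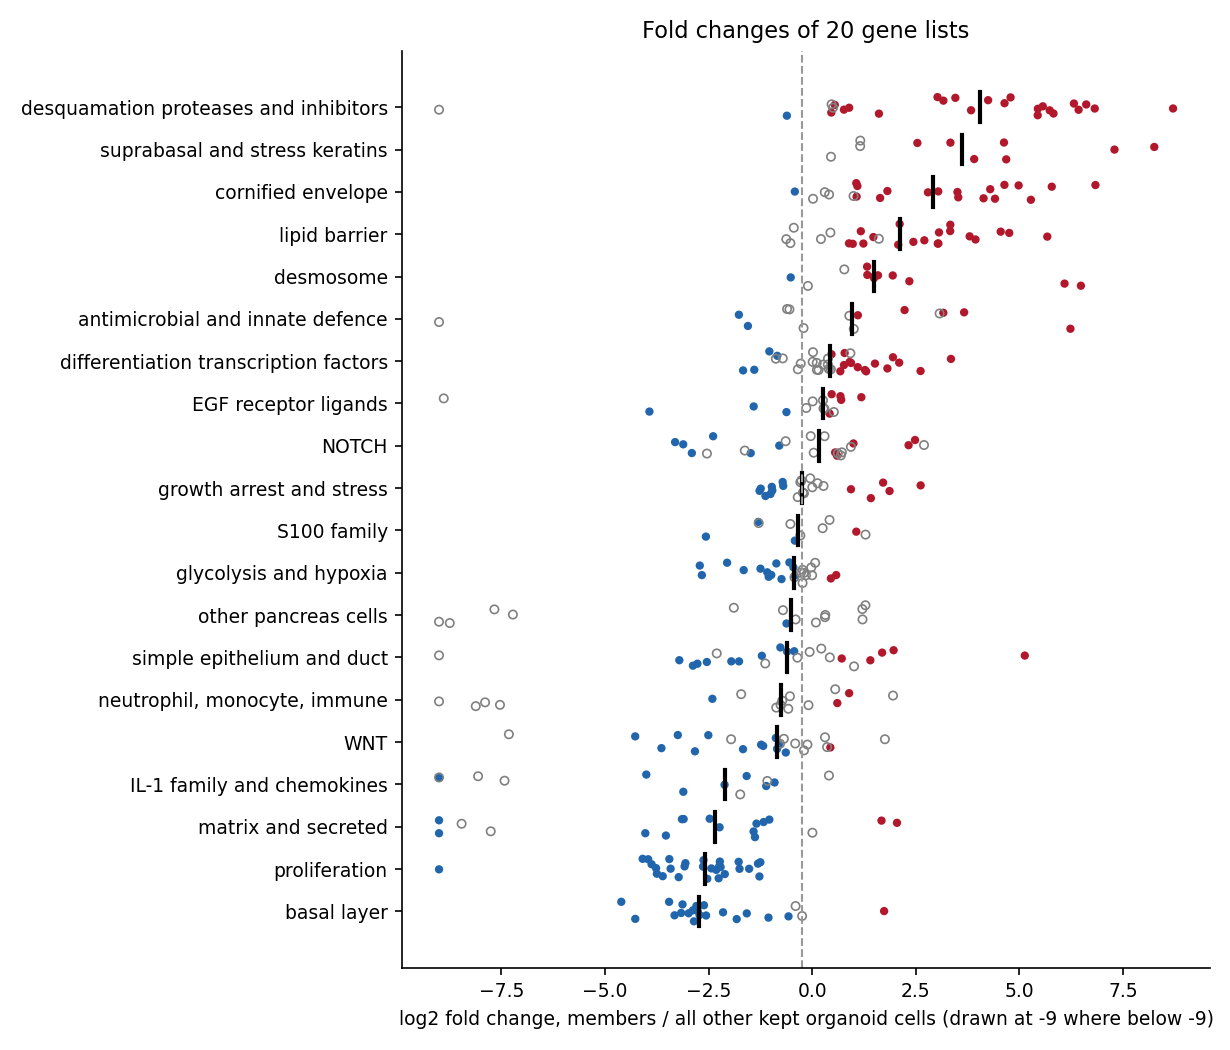
Log2 fold change (members over all other kept cells, x axis, values under -9 drawn at -9) of each tested gene in 20 gene lists, with red and blue points called higher and lower by edgeR, hollow grey points not called, a black bar at the median of a list and a dashed line at the median of all 21004 genes (-0.23). Medians lie right of the dashed line for the cornified envelope (2.92), desquamation (4.04), suprabasal keratin (3.62) and lipid barrier (2.11) lists and left of it for the basal layer (-2.74) and proliferation (-2.58) lists.

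Desmosome genes were mostly higher in members. Of 12 desmosome genes tested, 9 were higher and 1 lower, 8 of the 9 in all 4 fits. DSG1, the desmoglein of differentiated layers, was at 161 and 241 CPM in members and 2.04 and 6.93 CPM in other cells (6.09, SE 0.20). DSC1, its desmocollin partner, was at 44.2 and 77.05 CPM against 0.3699 and 1.79 CPM (6.48, SE 0.22). Neither gene overlapped between the sets. DSC2 and the plaque protein gene DSP, which other organoid cells also expressed, rose by 2.34 and 1.49, and PKP2, the plakophilin of simple epithelia, was called lower.

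Proteases and inhibitors of shedding formed the list with the highest median, 4.04 over 26 genes. Of these 22 were higher and 1 (CTSV, a lysosomal cathepsin) lower, 13 of the 22 in all 4 fits. SPINK5, which encodes the kallikrein inhibitor LEKTI, was at 526 and 641 CPM in members and 8.57 and 9.07 CPM in other cells (6.43, SE 0.20). KLK7, the chymotryptic kallikrein that cuts corneodesmosomes, was at 858 and 1877 CPM against 14.8 and 97.4 CPM (5.44, SE 0.20). Both lay far above the other cells in each library. SPINK5 was nonetheless found in only 38 of 89 and 39 of 73 members, at 42.7% and 53.4%, against 2.84% and 2.30% of other cells.

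Other kallikreins were less even between libraries. KLK10 was at 154 and 1142 CPM in members and 4.48 and 35.6 CPM in other cells, and KLK11 at 36.6 and 243 CPM against 0.484 and 4.74 CPM. KLK14, an activator of other kallikreins, was at 118 and 386 CPM against 0.656 and 8.46 CPM, and 1 cell held 76% of the KLK14 UMIs of PPDO 1 members. These 3 genes were several times higher in members of PPDO 2 than in members of PPDO 1, and none of the 3 passed in all 4 fits. SERPINB11, a clade B serpin, was at 45.03 and 143 CPM against 0.4102 and 2.94 CPM (6.51, SE 0.21) and passed in all 4. SERPINB12 was at 1.96 and 55.6 CPM against 0.0168 and 0.1502 CPM, with UMIs in 5 of 89 and 21 of 73 members. Kallikreins and clade B serpins are multigene families, so counts could be shared between neighbours.

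The genes of the lipid barrier list that were called were all higher in members. Of 25 tested, 19 were higher and none lower, all 19 in all 4 fits, with a median of 2.11. FABP5, the epidermal fatty acid binding protein, was at 21643 and 21425 CPM in members and 3918 and 4742 CPM in other cells (2.71, SE 0.19). ABCA12, which loads lipid into lamellar granules, was at 301 and 333 CPM against 37.2 and 45.5 CPM (3.33, SE 0.17). ELOVL4, an elongase of very long fatty acids, was at 85.02 and 136 CPM against 3.81 and 7.09 CPM. The ceramide synthase gene CERS3 rose by 3.94. For these 4 genes the sets did not overlap. ALOXE3 and SPTLC1 were among the 6 genes that did not pass. Of 33 genes on the list 29 were matched in the annotation, and 4 of these had no UMI in the members of each library. In PPDO 1 members ALOX12B and ALOX15B were at 0 CPM, and neither gene was tested.

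Outside the lists, CRABP2, which delivers retinoic acid to its nuclear receptors, was at 2489.5 and 3395 CPM in members and 136 and 171 CPM in other cells (4.64, SE 0.19). RDH12, a retinol dehydrogenase, was at 157 and 155 CPM against 3.67 and 5.99 CPM (5.44, SE 0.19). CRABP2 was chosen after its values were seen, and RDH12 was among the 15 genes of largest rise. C16orf89 was another of those 15, at 149.6 and 214 CPM against 2.41 and 7.45 CPM. C6orf15 had a log2 fold change of 6.83, but it had UMIs in 5 and 8 members and 1 cell in each library held 78% of them.

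Defence genes gave a mixed picture. Of 14 antimicrobial and innate defence genes tested, 5 were higher and 2 lower, all 7 in all 4 fits. SLPI, a secreted inhibitor of neutrophil elastase, was at 6508 and 7625 CPM in members and 71.8 and 209 CPM in other cells (6.23, SE 0.22). PGLYRP4, a peptidoglycan recognition protein, was at 18.2 and 27.4 CPM against 1.62 and 3.25 CPM (3.67, SE 0.26). LCN2, the iron-scavenging lipocalin, was lower, at 12.6 and 4.89 CPM against 38.02 and 27.4 CPM (-1.55, SE 0.24). Of 13 IL-1 family and chemokine genes tested none was higher and 7 were lower, only 2 of them in all 4 fits, and 2 of the 7 had no UMI in members of at least 1 library. Against the matched cells 8 of these genes were tested, of which 6 were lower and 1 (IL1R1) higher. CXCL14 was at 10.9 and 4.89 CPM against 201 and 122 CPM, and IL18 fell by 1.11, a call lost without the block. Cyclooxygenase 2, encoded by PTGS2, had no UMI in members of PPDO 1 and was at 0 and 3.76 CPM against 44.6 and 60.4 CPM. With a floor of 3 UMIs in the members of a library (0.839 CPM in PPDO 1), PTGS2 was at least 53.2-fold lower there.

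The S100 family did not move as a group. Apart from the score genes, 10 S100 genes were tested, of which S100A11 was higher and S100A1, S100A4 and S100A10 were lower, or 1 and 2 of 9 against the matched cells. S100A11, an envelope-associated member, was at 2434 and 2803 CPM in members and 1425 and 1869 CPM in other cells (1.06, SE 0.17). S100A1 was at 3.36 and 2.26 CPM against 21.6 and 22.3 CPM (-2.56, SE 0.32). S100A9, the partner of S100A8 in calprotectin, was not matched in the annotation and is not reported. S100A8 and S100A12 are themselves paralogs, so their separate levels depend on how reads were assigned.

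Transcription factors of squamous differentiation changed in part. Of 34 tested, 15 were higher and 4 lower, 11 and 2 of them in all 4 fits. GRHL1, a grainyhead factor of suprabasal layers, was at 86.1 and 119.9 CPM in members and 11.6 and 14.6 CPM in other cells (3.35, SE 0.18). GATA3 was at 83.1 and 51.9 CPM against 18.1 and 10.7 CPM (2.61, SE 0.18), and CASZ1 and CEBPA rose by 2.10 and 1.95. These 4 genes did not overlap between sets. PPARD, a fatty acid receptor, rose by 1.10. SMAD3, FOSL1, RORA and AHR were called lower, and KLF4, KLF5, GRHL2 and ELF3 were among the 15 genes not called.

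NOTCH genes went both ways. Of 22 tested, 5 were higher and 6 lower, 3 and 2 of them in all 4 fits, and against the matched cells 5 of 15 were higher and 6 lower. NRARP, a feedback inhibitor and target of NOTCH, was at 78.3 and 51.9 CPM in members and 18.8 and 11.7 CPM in other cells (2.48, SE 0.18). The target HES4 was at 42.5 and 33.5 CPM against 13.6 and 6.86 CPM (2.33, SE 0.20). HES1 was at 112 and 104 CPM against 101 and 90.98 CPM (0.55) and was not called without TMM or without the block. The receptor NOTCH1 fell by 0.79, whereas NOTCH3 had a log2 fold change of 0.60 that was not called without TMM. The median of the list was 0.17 with TMM and -0.21 without, so its direction as a group depends on the scaling.

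Basal layer genes were mostly lower in members. Of 22 tested, 19 were lower and 1 higher, 16 of the 19 in all 4 fits, with a median of -2.74. Against the matched cells 18 of 22 were lower and 1 higher. COL17A1, the hemidesmosome collagen, was at 107 and 47.7 CPM in members and 699 and 676 CPM in other cells (-2.85, SE 0.18). ITGB4, the integrin of hemidesmosomes, was at 60.97 and 19.2 CPM against 319.6 and 337 CPM (-2.76, SE 0.18). Its partner ITGA6 was at 121 and 25.6 CPM against 738 and 864 CPM. All 3 were lower in both member sums, and lower in members of PPDO 2 than of PPDO 1.

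KRT15, a type I keratin of basal cells, was at 344 and 68.4 CPM in members and 1139.5 and 1447 CPM in other cells. It was lower in each library, but its log2 fold changes were -1.43 and -3.93, and the call was lost in DESeq2, with the robust prior and without the block. TP63 was at 379 and 229.6 CPM against 556 and 591 CPM (-0.57, SE 0.16). KRT5, the basal type II keratin, was the exception of the list. It was at 13916 and 18678 CPM in members and 5318 and 7521 CPM in other cells (1.74, SE 0.19), higher in both libraries, though DESeq2 did not call it.

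Genes of simple ductal epithelium were split. Of 23 tested, 5 were higher and 10 lower, 3 and 3 of them in all 4 fits, and against the matched cells 5 of 17 were higher and 9 lower. KRT7 was at 69.1 and 25.2 CPM in members and 392 and 388 CPM in other cells (-2.77, SE 0.18), and KRT8 at 299 and 93.96 CPM against 1112 and 656 CPM (-1.95, SE 0.17). KRT18 fell by 2.54 and the pancreatic transcription factor gene PDX1 by 1.21, and the calls of KRT8, KRT18 and PDX1 were lost without the block. CA2, the carbonic anhydrase of ductal bicarbonate secretion, went the other way, at 80.3 and 162 CPM against 2.96 and 6.13 CPM (5.13, SE 0.19). CDH1 (E-cadherin), CLDN4 (claudin 4) and ANXA4 were called higher, with CDH1 at 403 and 330.4 CPM against 188 and 172 CPM. SOX9, the ductal transcription factor, was at 5.87 and 7.52 CPM against 3.26 and 1.38 CPM (1.96), and its call was lost without the block. CFTR, SCTR and ONECUT1 were not called.

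Cell cycle genes were lower in members. All 28 proliferation genes tested were lower, 25 of them in all 4 fits, with a median of -2.58, and the 28 were also lower against the matched cells. Of these genes 4 had no UMI in members of at least 1 library. TOP2A, needed for chromosome separation, was at 0.839 and 1.88 CPM in members and 22.4 and 36.9 CPM in other cells (-4.09, SE 0.36). The member sums held 3 and 5 UMIs of it, and other cells were 26.7-fold higher in PPDO 1 (95% exact Poisson interval of the member UMIs 9.14 to 129.5, counting error only) and 19.7-fold higher in PPDO 2 (8.42 to 60.5). It had UMIs in 3 of 89 and 2 of 73 members (3.37% and 2.74%), against 11.5% and 14.2% of other cells. PCNA, the replication clamp, was at 18.2 and 14.3 CPM against 48.2 and 53.1 CPM (-1.25, SE 0.20). CDKN2B, which encodes the inhibitor p15, was at 164 and 185 CPM against 35.5 and 38.6 CPM (2.62, SE 0.17) and was 1 of 5 genes called higher on a list of 22 growth arrest and stress genes, of which 8 were lower (6 against the matched cells). HSPB1, a small heat shock protein of keratinocytes, rose by 1.42.

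WNT and EGF receptor genes were examined because the culture medium contains ligands of both pathways. Of 23 WNT genes tested, 12 were lower and 1 higher, 6 of the 12 in all 4 fits, and against the matched cells 9 of 20 were lower and 1 higher. LGR6, an R-spondin receptor, was at 5.03 and 0.752 CPM in members and 71.9 and 85.8 CPM in other cells (-4.27, SE 0.26), with 18 and 2 UMIs in the member sums. Other cells were 14.3-fold higher in LGR6 in PPDO 1 (95% exact Poisson interval 9.04 to 24.1) and 114.2-fold higher in PPDO 2 (31.6 to 942.7), intervals that cover counting error only. The nuclear factor gene LEF1 was at 4.19 and 4.13 CPM against 33.9 and 26.6 CPM, and the target AXIN2 at 10.1 and 2.26 CPM against 27.3 and 23.5 CPM, its call lost without the block. LGR4 was called higher (0.44) with overlapping groups, and not without TMM. Of 15 EGF receptor genes, 5 were higher and 3 lower, 2 and 2 of them in all 4 fits. NRG1, a ligand of ERBB3 and ERBB4, was at 43.1 and 42.1 CPM against 841 and 846 CPM (-3.93, SE 0.19), and 1 member held 48% and 74% of what remained. TGFA had a log2 fold change of 0.70, not called without TMM.

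Matrix genes were mostly lower and metabolic genes were lower in part. Of 24 glycolysis and hypoxia genes, 13 were lower and 2 higher, though 5 of the 13 passed in all 4 fits, and against the matched cells 10 of 24 were lower and 2 higher. ENO1, enolase, was at 774 and 653 CPM in members and 2122 and 2289 CPM in other cells (-1.25, SE 0.17), and P4HA1, a collagen prolyl hydroxylase, at 25.4 and 8.64 CPM against 143 and 139 CPM (-2.71, SE 0.20). GAPDH fell by 0.55, a call lost without the block and with other cells matched on UMI total. Of 18 matrix and secreted genes of other organoid cells, 13 were lower and 2 (COL4A1 and GPNMB) higher, 7 of the 13 and neither of the 2 in all 4 fits, and 4 of the 13 had no UMI in members of at least 1 library, while against the matched cells 12 of 15 were lower and 2 higher. TIMP3, a metalloprotease inhibitor, was at 5.59 and 5.64 CPM against 84.97 and 82.7 CPM (-3.53, SE 0.23). Tenascin C, encoded by TNC, had no UMI in members of either library and was at least 19.2-fold and 4.57-fold lower, with floors of 0.839 and 1.13 CPM.

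The genes of largest fall came from several of these groups and from others. COL12A1, a fibril-associated collagen, was at 1.398 and 1.13 CPM in members and 56.6 and 54.7 CPM in other cells (-5.08, SE 0.32), with 5 and 3 UMIs in the member sums. Other cells were 40.5-fold higher in COL12A1 in PPDO 1 (95% exact Poisson interval 17.3 to 124.6) and 48.5-fold higher in PPDO 2 (16.6 to 235.4). IGFBP6 and IGFBP5, secreted binders of insulin-like growth factors, fell by 4.27 and 4.03, and SOX6 by 4.02. GABRA2, a GABA receptor subunit, and DOCK5, a Rac activator, fell by 4.14 and 3.99. By size, 25 genes with a symbol and at least 50 CPM in the higher set were taken as the largest rises and falls. Of these, 20 passed in all 4 fits, and KLK11, KLK14, CASP14, PTGS2 and KRT1 did not. Some of the strongest rises had no gene symbol. ENSSSCG00000022258 was at 1067 and 1205 CPM against 2.94 and 16.8 CPM, and it did not pass in all 4 fits. ENSSSCG00000027025, which did, was at 28.5 and 74.4 CPM against 0.114 and 0.708 CPM. Genes without a symbol may include envelope or S100 genes that could not be matched by name.

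The second comparison asked whether members differed from the cells just below them on the same score, the next 4% (355 and 294 cells). Of 12768 genes tested, 652 (5.11%) were higher and 609 (4.77%) lower in members with the library as a block, or 144 and 531 without TMM. DESeq2 and the robust prior also called 215 (1.68%) and 111 (0.869%) of them. Without the block no gene passed in either direction, while 318 and 427 genes had an unadjusted p under 0.05 in that fit. This comparison uses the same member sums as the first, and its calls rest on the block. Both sets are neighbouring slices of 1 ranking. The choice of sets therefore favours higher levels in members for genes that go with the score, and lower levels for genes that go against it. Its calls describe such genes, and the part due to this choice was not tested. Its TMM-scaled fold changes lie about 0.24 above the log2 ratio of CPM values, and those of the third comparison about 0.22.

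Many barrier genes were higher in members than in the next 4%. Of 24 shedding genes 16 were higher and none lower, of 20 envelope genes 14 were higher and 2 lower, and of 23 lipid barrier genes 13 were higher and none lower. Of 12 desmosome genes 5 were higher and 7 were not called. In all 3 fits (edgeR, edgeR with a robust prior and DESeq2) 11 shedding, 11 envelope, 9 lipid barrier and 3 desmosome genes were higher. Neither of the 2 lower envelope genes passed in all 3. DMKN was at 1919 and 4215 CPM in members and 161 and 1256 CPM in the next 4% (log2 fold change 2.90, SE 0.13). It had been listed with the score genes as a marker of these cells, so its values are a description. SPINK5 was at 526 and 641 CPM against 122 and 137 CPM (2.41, SE 0.14), and SLPI at 6508 and 7625 CPM against 1075 and 3487 CPM (2.11, SE 0.12). The sets did not overlap for these 3 genes. IVL was at 723 and 1463 CPM against 350.0 and 815 CPM (1.19, SE 0.13), where the members of PPDO 1 lay below the next 4% of PPDO 2.

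Basal genes were mostly lower again. Of 22 basal genes 16 were lower and 1 higher, and of 17 ductal genes 8 were lower, 1 higher and 8 not called. In all 3 fits 12 basal and 4 ductal genes were lower, and 1 of each list was higher. KRT15 was at 344 and 68.4 CPM in members and 992 and 636 CPM in the next 4% (-2.06, SE 0.14), and ITGA6 at 121 and 25.6 CPM against 610.4 and 214 CPM (-2.40, SE 0.15). KRT7 was at 69.1 and 25.2 CPM against 273 and 163 CPM (-2.04, SE 0.15). MMP3, stromelysin, was at 633 and 120.3 CPM against 1931 and 993 CPM (-2.05, SE 0.14). None of these overlapped. TP63 was at 379 and 229.6 CPM against 441 and 339 CPM and was not called (-0.14, SE 0.13, edgeR adjusted p = 0.628). Only 2 of 21 proliferation genes were lower, neither of them in all 3 fits, and none was higher. The first comparison had called every tested gene of that list, and the difference between the comparisons was not tested.

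Along the whole score, some genes were highest in the members and others at lower scores. IVL went from 723 CPM in PPDO 1 members and 1463 CPM in PPDO 2 members to 6.83 and 11.2 CPM in the lower ranked 50% of cells. KRT10 was at 92.5 and 58.4 CPM at that end and reached 793 CPM in members of PPDO 1 and, in PPDO 2, 602 CPM at ranks 1 to 2% and 576 CPM in members. KRT5 was at 4327 and 6016 CPM against 13916 and 18678 CPM in members. NRG1 ran the opposite way, from 43.1 and 42.1 CPM in members to 1021 and 1072 CPM at the low end.

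KRT15, ITGA6, KRT7 and MMP3 had their maximum in between. KRT15 was highest at ranks 5 to 10% in PPDO 1 (1665 CPM) and 10 to 25% in PPDO 2 (1756 CPM), and was at 344 and 68.4 CPM in members. ITGA6 was highest in the same bins, at 932 and 1045 CPM, and was at 121 and 25.6 CPM in members. KRT7 was at 474 and 526 CPM in those bins. MMP3 peaked at ranks 5 to 10% in both libraries, at 2275 and 1671 CPM. These are sums over score bins within a library, given as a description with no test.

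**Figure D4:**
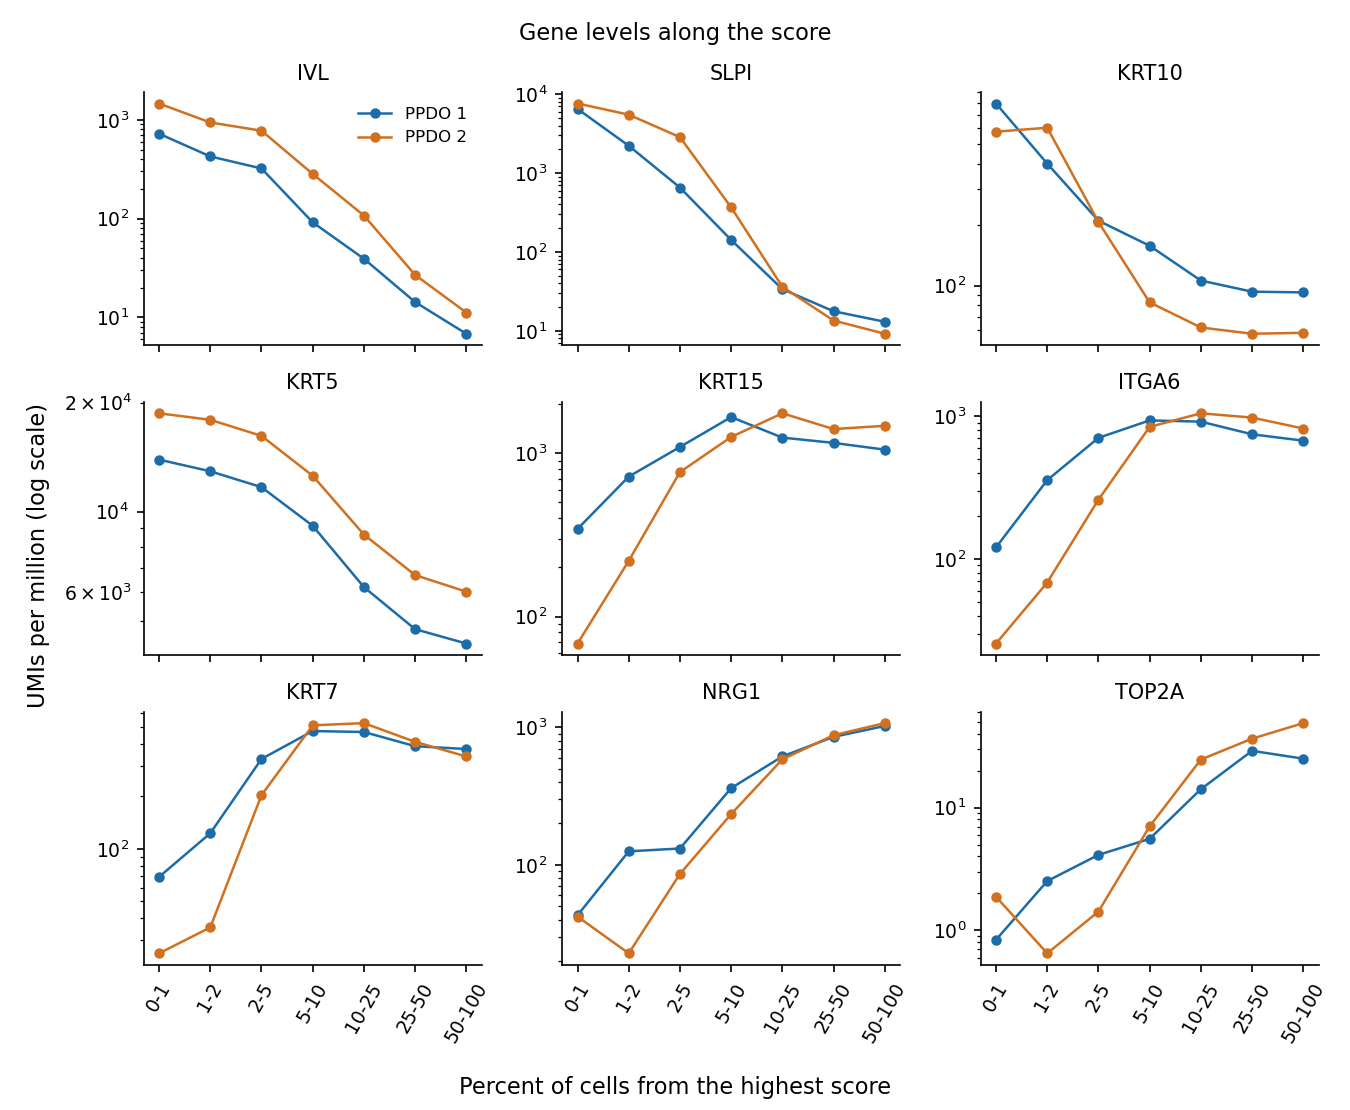
Level (CPM, log axis) of IVL, SLPI, KRT10, KRT5, KRT15, ITGA6, KRT7, NRG1 and TOP2A in 7 bins of score rank (percent of kept cells, highest scores first), with 1 line per organoid library. IVL, SLPI and KRT5 are highest in the members, KRT10 in the first or second bin, KRT15, ITGA6 and KRT7 peak between ranks 5 and 25%, and NRG1 is highest in the lowest ranks.

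The third comparison set the members beside another small set of organoid cells, the highest 1% by SPINK5 and KLK7. Both selections shared 33 cells in PPDO 1 (37.1%) and 21 in PPDO 2 (28.8%), which were kept as members, leaving 56 and 52 cells to compare. Another 35 and 37 of the SPINK5 and KLK7 cells lay in the next 4% of the S100A8 and SPRP score. Since the shared cells counted only as members, the choice itself favours higher levels in members for genes that go with that score. The calls below describe how these selections differ, and the part due to this choice was not tested. Of 9874 genes tested, 145 (1.47%) were higher and 227 (2.3%) lower in members, or 54 and 323 without TMM. DESeq2 and the robust prior also called 22 (0.223%) and 46 (0.466%) of them. Without the block none passed in either direction, while 341 and 434 genes had an unadjusted p under 0.05. At 0.5% in place of 1% of cells 2 and 4 genes were called, and at 2% 838 and 952, so the counts depend on the size of the sets.

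Some barrier genes were called higher between these sets, and most were not called. Of 20 envelope genes 3 were higher and 1 lower, and of 20 shedding genes 4 were higher and 1 lower, where 1.47% and 2.3% of all genes tested were. Of 22 lipid barrier genes 4 were higher and none lower, and of 11 desmosome genes 2 were higher and none lower. In all 3 fits 1 of the 3 envelope genes and 2 of the 4 shedding genes were higher, and none of the lipid barrier or desmosome genes. IVL was at 723 and 1463 CPM in members and 1051 and 1673 CPM in SPINK5 and KLK7 cells, and the fitted difference was -0.14 on the log2 scale (edgeR adjusted p = 0.891), a value that changed sign at 0.5% of cells. KRT10 was at 793 and 576 CPM against 206 and 709 CPM (1.04, SE 0.36, edgeR adjusted p = 0.124) and SLPI at 6508 and 7625 CPM against 1652 and 6934 CPM (1.28, SE 0.45, edgeR adjusted p = 0.129). These differences missed the threshold, which does not show that the sets are alike.

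A few genes were higher in members. LYPD2, a membrane protein of the Ly6 family, was at 77.5 and 92.5 CPM in members and 10.9 and 32.97 CPM in SPINK5 and KLK7 cells (2.29, SE 0.27). CRABP2 was at 2489.5 and 3395 CPM against 504 and 1543 CPM (1.94, SE 0.36). Both passed in all 3 fits and did not overlap. DMKN (1.98), DSG1 (1.78), CASP14 (1.96) and the metallothionein gene MT1A (1.77) were called by edgeR but not in all 3 fits. DMKN was at 1919 and 4215 CPM against 293 and 2398 CPM, and CASP14 at 106 and 163 CPM against 3.45 and 138 CPM, so both overlapped between sets, and the gap lay mostly in PPDO 1.

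More genes were lower in members. NMB, the peptide neuromedin B, was at 12.03 and 1.503 CPM in members and 377 and 263 CPM in SPINK5 and KLK7 cells (-5.48, SE 0.36). ALDH1A3, a retinaldehyde dehydrogenase, was at 0.2797 and 5.64 CPM against 54.6 and 45.6 CPM (-4.03, SE 0.50), with 1 and 15 UMIs in the member sums. SPINK5 and KLK7 cells were 195.1-fold higher in ALDH1A3 in PPDO 1 (95% exact Poisson interval 35.0 to 7706) and 8.09-fold higher in PPDO 2 (4.91 to 14.5), intervals that cover counting error only. CALY was at 7.27 and 1.88 CPM against 98.2 and 10.99 CPM (-3.32, SE 0.38). NMB and ALDH1A3 were the named genes still called at 0.5% of cells. TIMP3 was at 5.59 and 5.64 CPM against 85.6 and 41.8 CPM and IGFBP1, an insulin-like growth factor binder, at 8.95 and 9.396 CPM against 128 and 29.7 CPM. None of these 5 genes overlapped, but they had been picked for large falls with the same direction in both libraries.

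Some basal and ductal genes also differed between the sets. Of 20 basal genes none was higher and 9 were lower, and of 15 ductal genes 5 were lower and 1 (CA2, 1.53) higher. In all 3 fits 5 of the 9 basal and 3 of the 5 ductal genes were lower, and CA2 was higher. ITGA6 was at 121 and 25.6 CPM in members and 871 and 303 CPM in SPINK5 and KLK7 cells (-2.96, SE 0.27). KRT7 was at 69.1 and 25.2 CPM against 384 and 170.4 CPM (-2.39, SE 0.24). COL17A1 and ITGB4 fell by 1.57 and 2.05, and KRT18 by 2.20. Of 22 glycolysis and hypoxia genes 9 were lower, only 2 of them in all 3 fits, and none was higher. P4HA1 was at 25.4 and 8.64 CPM against 150.5 and 54.95 CPM (-2.40, SE 0.25) and NDRG1 at 256 and 309 CPM against 1503 and 756 CPM. None of the 7 proliferation genes tested was called.

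**Figure D5:**
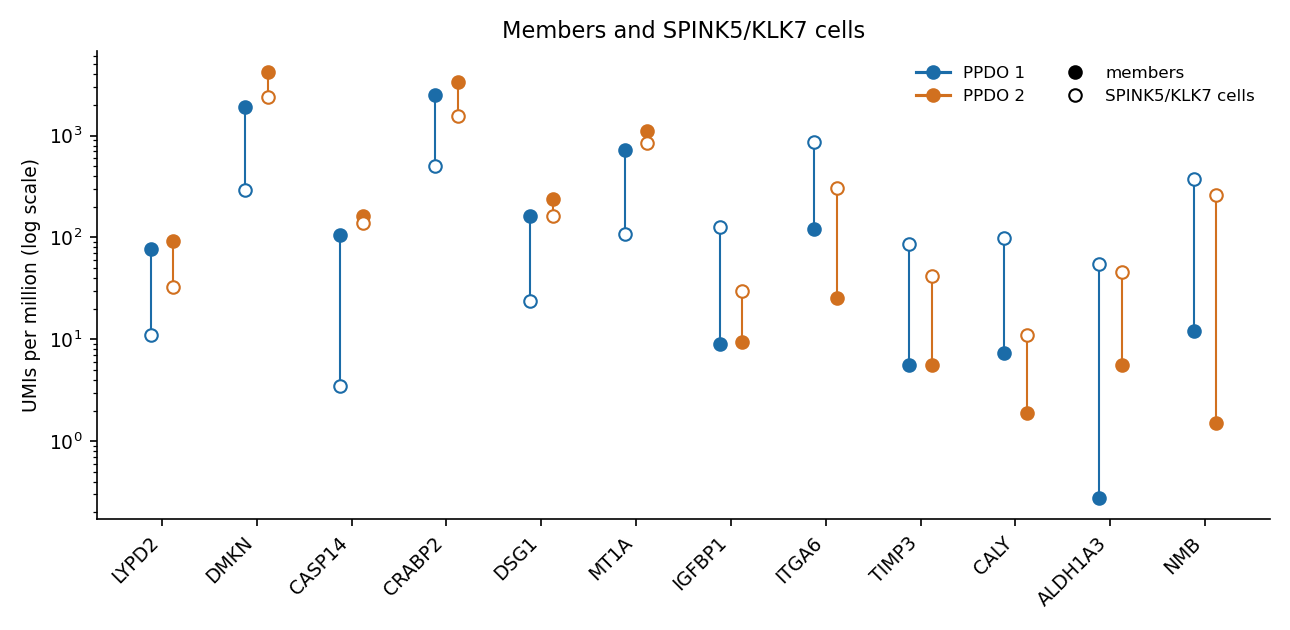
Level (CPM, log axis) of 12 genes in members (filled points) and in SPINK5 and KLK7 cells that are not members (open points). Each organoid library has 1 pair. The genes are those of largest rise and, in equal number, those of largest fall in members. Only genes with a symbol, at least 50 CPM in the higher set and the same direction in both libraries were ranked. LYPD2 and CRABP2 are higher and NMB, ALDH1A3, CALY, TIMP3, ITGA6 and IGFBP1 lower in members of both libraries, whereas the values of CASP14, DMKN and MT1A overlap between sets.

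Members were not uniform. On the scale of ln(1 + UMIs per 10000), S100A8 ran from 0.863 through a median of 4.56 to 6.63 in members of PPDO 1 and from 2.56 through 5.16 to 6.60 in PPDO 2. SPRP ran from 0 through 2.84 to 5.58 and from 0.444 through 4.004 to 6.17. CNFN ran from 0 through 1.06 to 3.96 and from 0 through 2.53 to 4.21. SPRP had UMIs in 74 of the 89 members of PPDO 1, whose limit was lower, and in 73 of 73 of PPDO 2. DMKN, the marker that the score did not use, was found in 85 of 89 (95.5%) and 72 of 73 members (98.6%), against 18.2% and 26.4% of other cells. Because it was listed beforehand as a marker of these cells, these shares and its fold changes above describe the choice of markers.

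Rank correlations over members were computed within each library, over 89 and 73 cells that share a library and were picked on the sum of 5 of these genes, a choice that affects every value among or with those 5. S100A8 and S100A12 went together, with Spearman values of 0.948 and 0.943. SPRP and CNFN gave 0.496 and 0.474, and KRTDAP and DMKN 0.587 and 0.537. S100A8 and SPRP gave -0.238 and -0.223. KRT5, which the score did not use, gave -0.331 and -0.394 with the score gene S100A8 and -0.339 and -0.287 with IVL. Other pairs differed between libraries, some in sign, such as S100A12 with KRT1 (0.253 and -0.199), S100A12 with KRTDAP (0.0232 and -0.373) and S100A8 with KRT1 (0.265 and -0.100). They are descriptions, with no p.

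No primary pancreas cell reached the scores of the organoid members. Of 5760 and 4415 kept cells none reached the lower organoid limit, and the highest scores were 0.910 and 0.972. SPRP had no UMI in either library, which allows up to 0.0384 and 0.0240 CPM. S100A8 was at 0.205 and 0.152 CPM, S100A12 at 0.486 and 0.248 CPM, CNFN at 1.29 and 0.921 CPM and KRTDAP at 0.525 and 0.208 CPM. DMKN was at 3.49 and 3.77 CPM. The cells that scored highest there, 58 and 44 of them, included 40 and 28 with UMIs of CNFN, 17 and 9 with UMIs of PTPRC, the pan-leukocyte marker, 10 and 25 with UMIs of the epithelial EPCAM and 9 and 14 with UMIs of KRT7. These libraries were enriched for ductal or beta cells, so cells outside those fractions were less represented. Culture and library kind coincide in this comparison and cannot be told apart.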

How the data were processed

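Droplet-based single-cell RNA sequencing of 2 PPDO and 2 primary pancreas libraries was analysed, with groups taken from the sample titles. Unnormalised UMI counts of each feature in each barcode were deposited, made by the authors with Cell Ranger (7.1.0 per the file headers) against a pig annotation with added 3' extensions. The submitters' processing notes also name Sscrofa11.1. Lists of barcodes and of features, deposited beside them, hold no measurement (unit other). The study's later correction for free RNA is not part of these counts. Positions are from RefSeq (Sscrofa11.1).

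Features of 1 gene were summed, which took 56060 features to 30282 gene identifiers, of which 12861 had no symbol. PPDO barcodes with 1000 to 9000 features and at most 3% mitochondrial UMIs were kept, 90.2% and 90.9% of all. Scrublet (through Scanpy 1.11.5, Python 3.11.15) was used to read doublet scores, and PPDO cells were removed by it only in an alternative without scores over 0.25. Primary cells were kept under 8% mitochondrial UMIs and 9000 features, with over 400 features in the first library and over 800 features and 3000 UMIs in the second.

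UMIs were summed per library and cell set, because cells are not replicates, and the sums of the 2 organoid libraries were tested with edgeR 4.0.16 in R 4.3.3 (TMM, filterByExpr, glmQLFit and glmQLFTest, two-sided, Benjamini-Hochberg at 0.05) with the library as a block, since both sums of a pair come from the same library. DESeq2 1.42.0, a robust prior and a fit without the block served as alternatives. The score genes stayed in the library sizes and were not tested, and their levels in cells picked on the other 4 are given without a test, because most of those cells are members. Nothing in the labels says how far the libraries are independent. With the block, p-values and SE rest mainly on a spread shared over genes. They do not measure how far the 2 libraries differed for a given gene. SE is the absolute fold change divided by the root of the F statistic. Intervals for shares are exact (Clopper-Pearson, 95%) and, like the floors of 3 UMIs, cover counting error only. The edgeR fit with the block and DESeq2 were tested on simulated data for the first comparison, and the other fits and comparisons were not. Members and gene lists were chosen with earlier results of these data known. Named genes were those of the lists, and by size the 15 highest and 10 lowest log2 fold changes in the first comparison and the 6 in each direction in the third, with a symbol, at least 50 CPM in the higher set and the same direction in both libraries. CRABP2 in the first comparison was chosen after its values were seen.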

Additional observations from a re-analysis of the deposited data

Results flagged for a closer look

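Barcodes that the limits on cell quality had left out also reached the score of the members, a signal in data that no comparison above used. Of 159 PPDO 1 barcodes with under 1000 features, 23 (14.5%, exact 95% interval 9.40 to 20.9%) scored at or over the lowest member of PPDO 1. Of 138 such barcodes in PPDO 2, 12 (8.70%, 4.57 to 14.7%) did. The median depth of those at or over the limit was 2610 and 2904.5 UMIs, against 40744 and 33228 UMIs in members. A single UMI weighs more in the score at lower depth, and whether depth bears on these shares was not tested. Among 758 PPDO 1 barcodes with over 9000 features, 5 (0.660%, 0.215 to 1.53%) reached the limit, at a median of 117327 UMIs, and 1 of 548 in PPDO 2 (0.182%, 0.00462 to 1.01%) did, at 119671 UMIs. No barcode left out for over 3% mitochondrial UMIs reached it, of 51 and 48.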

How the results depend on the processing

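Directions were more stable than counts. Of the genes named in the first comparison, each kept its direction under every alternative run, but without the block 25 of the 95 values were no longer called, as were 44 of 1139 under the other alternatives with a test. In the third, IVL, which was not called, changed sign to 0.24 at 0.5% of cells, 0.68 with 1 score threshold for both libraries and 0.15 without PPDO 1, with -0.44 without PPDO 2.

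Genes called higher and lower in the first comparison (2267 and 3040) came to 1239 and 1416 with no replicate block. With other cells matched on UMI total they came to 2249 and 2238. Without TMM, added after seeing the data, they came to 1143 and 5081, and DESeq2 called 1666 lower. In the second comparison (652 and 609) no replicate block left 0 and 0, DESeq2 215 and 111, a floor of 600 features 300 and 274, removal of cells with a Scrublet score over 0.25 gave 400 and 354, and no TMM 144 higher. In the third (145 and 227) no replicate block left 0 and 0, DESeq2 30 and 52, the highest 0.5% 2 and 4, the highest 2% 838 and 952, and 1 score threshold for both libraries 89 and 96. Higher calls there were 238 with a floor of 600 features, 54 without TMM, 246 without the low-count filter, 78 without 3' extension features and 225 without cells of a Scrublet score over 0.25. The cause of these shifts was not tested. Without either library 1 pair of sums is left, so counts of calls could not be had. Adjusted p-values that DESeq2 gave as NA stayed NA. Depth limits what can be said of genes with few UMIs in the members, such as KRT18 or LGR6.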
